A study of Mus musculus with 2 samples.

Results

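The Lyz2-high, C1q-low cells described here are a small myeloid set of the embryonic mouse coronal suture, the fibrous joint between the frontal and parietal bones. They numbered 135 of the 16884 cells that passed the cell limits, of which 86 were among the 8117 cells of embryonic day E15.5 and 49 among the 8767 of E17.5. Members were chosen by measured values: they lacked a label in the authors' table of osteogenic and mesenchymal cells, held at least 10 unique molecular identifiers (UMIs, counted RNA molecules) of Lyz2, fewer than 10 UMIs of C1qa, C1qb and C1qc together and fewer than 20 of Acp5 and Mmp9 together. Each also had 1000 or more UMIs and genes, no more than 7.5% mitochondrial UMIs and no more than 3% of UMIs from Hbb or from Hba. These genes describe how the cells were selected on and are no result.

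Both groups were wild-type embryos of the strain labelled C57/BL6, and each stage is 1 deposited 10x Genomics Chromium 3′ count matrix, called a library here. The E15.5 library came from 10 pooled sutures digested for 45 min with Collagenase II and Dispase, followed by removal of dead cells. The E17.5 library came from 16 sutures of 2 litters in 3 batches (10 sutures, then 3 and 3), digested for 30 min with Collagenase IV and sorted by flow cytometry. Stage, enzyme, sorting and embryos differed together and cannot be told apart, and with 1 library per stage no difference was tested. E17.5 barcodes end in 1 of 3 suffixes, whose values are given for some results, although the sources used here do not say which suffix is which batch.

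Monocytes leave the fetal liver and, later, the bone marrow, enter tissues from the blood and can become macrophages or cells that resemble dendritic cells. Granulocytes, of which neutrophils are the most common, arise from related progenitors, carry ready-made granules of proteases and antimicrobial proteins, and lose most granule transcripts as they mature. Lyz2 encodes the lysozyme of both lineages and of macrophages, C1q genes encode a complement component made by resident tissue macrophages, and Acp5 and Mmp9 mark osteoclasts, the bone-resorbing relatives of these cells.

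The working name of the set was monocytes and granulocytes, and the markers of the 2 lineages gave unlike results. Plac8, Ccr2 and Ly6c2, 3 genes of blood monocytes, were each well above their level in C1q-high macrophages in both libraries. Of the 13 monocyte genes compared, 6 were at least 2-fold above macrophages, 2 at least 2-fold below and 5 neither. By contrast, no UMI of Mpo, Elane, Ltf, Camp, Ngp, Chil3, Ly6g, Cd177 or Ms4a3 was found in any of the 135 cells, although a list of mature neutrophil genes, most of it S100a8 and Il1b, was above macrophages. Monocytes can make both of these genes, and granulocytes past the stage of granule transcripts cannot be told from them by the absent genes, so the set is called by its rule throughout. The absence holds only for cells inside the cell limits, since some low-gene E15.5 barcodes outside them held UMIs of Camp and Ngp.

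The E15.5 members held 683866 UMIs and the E17.5 members 430251. Their median depth was 6088.5 UMIs and 2037 genes in the first group and 6622 UMIs and 2200 genes in the second, below the 8564.5 and 12302 UMIs of labelled cells. Levels below are UMIs summed over the cells divided by the total UMIs of those cells and scaled to 1000000 (counts per 1000000, CPM), and all intervals are exact 95% intervals that cover counting error only. A count of 0 allows up to 3 UMIs, which is 4.39 CPM at E15.5 and 6.97 CPM at E17.5. Levels are compared between cells and not between genes. No member shared its barcode sequence with another member, and 2 E15.5 members shared theirs with some kept E17.5 cell. In all, 94 kept cells shared a sequence between stages and 37 between E17.5 suffixes.

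Members made up 1.06% (0.848 to 1.31%) of kept E15.5 cells and 0.559% (0.414 to 0.738%) of kept E17.5 cells, an E17.5 to E15.5 ratio of 0.528 (0.364 to 0.758). The ratio was 0.247, 0.603 and 0.571 in the 3 E17.5 suffixes, which held 4, 23 and 22 members. The share of C1q-high macrophages moved the other way, from 4.18% to 6.58%, a ratio of 1.58 (1.38 to 1.81). Taken over unlabelled cells alone, the members' ratio was 0.846 (0.583 to 1.21), which kept the direction but with an interval that holds 1, and the 3 suffixes gave 0.452, 0.924 and 0.909. Enzyme, sorting and the dissected strip also differed between libraries, and their part in these shares was not tested.

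The limits cut a range rather than a gap at some points. The median member held 61 Lyz2 UMIs (11 to 218) in the younger library and 158 (13 to 453) in the older. Just inside the Lyz2 limit lay 5 and 2 members with 10 to 14 UMIs, and just outside it 3 and 10 unlabelled cells with 5 to 9. No C1q UMI was found in 57 of 86 and 27 of 49 members, while 5 and 6 members held 5 to 9. Just beyond the C1q limit lay 12 and 4 cells with at least 10 Lyz2 UMIs and 10 to 19 C1q UMIs, part of 90 and 157 Lyz2-high cells assigned to the macrophages. The limit on Acp5 and Mmp9 turned no cell away in either library.

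Plac8, a small cysteine-rich protein of blood myeloid cells, stood at 1260 CPM (1178 to 1348) in E15.5 members and 1116 CPM (1018 to 1220) in E17.5 members. Its level in C1q-high macrophages was 70.0 and 18.96 CPM, and in labelled mesenchymal and osteogenic cells 5.57 and 1.90 CPM. Members were thus 18.0-fold and 58.8-fold above macrophages. A Plac8 UMI was found in 91.9% of E15.5 members and 83.7% of E17.5 members, and after thinning every cell to 2000 UMIs in 76.7% and 65.3%, against 1.1% and 0.6% of labelled cells. Plac8 is on chromosome 5, at 100553725 to 100572245 of GRCm38 on the minus strand.

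Ccr2, the chemokine receptor by which monocytes leave the bone marrow (chromosome 9, 124101950 to 124113557, plus strand), was at 398 CPM (352 to 448) in E15.5 members and 595 CPM (524 to 673) in E17.5 members. Macrophages held 49.9 and 29.6 CPM. The 3 E17.5 suffixes gave 981, 668 and 451 CPM, all above the E15.5 level. Ly6c2, a surface protein of classical inflammatory monocytes (chromosome 15, 75108158 to 75111970, minus strand), was at 108 CPM (85.0 to 136) in E15.5 members and 232 CPM (189 to 283) in E17.5 members, against 0.54 and 1.52 CPM in macrophages. It was uneven within the set: only 31.4% and 34.7% of members had a Ly6c2 UMI, and 5 and 4 cells held most of its UMIs.

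Ms4a6c, a membrane protein of monocytes and macrophages, was at 876 and 1090 CPM in members and at 522 and 716 CPM in macrophages, so the 2 kinds of cell were less than 2-fold apart. Of the 14 monocyte genes listed, 13 could be compared with macrophages. Plac8, Itgam, Ccr2, Ly6c2, Nr4a1 and Mpeg1 were at least 2-fold above macrophages in both libraries, against 2.6% of all 7115 genes compared. Cx3cr1, the fractalkine receptor, and F13a1, a clotting factor subunit, were at least 2-fold below, against 3.46% of all genes, and the other 5 were neither. Cx3cr1 stood at 83.3 and 167 CPM in members and 319 and 480 CPM in macrophages. Ace and Spn, genes of patrolling monocytes, had 0 UMIs of Ace in both libraries and 1 and 2 UMIs of Spn.

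Counted per cell, at least 10 UMIs of Ccr2, Ly6c2, Ms4a6c, Csf1r, F13a1 and Fn1 together were found in 66 of 86 E15.5 members (76.7%, 66.4 to 85.2%) and in 47 of 49 E17.5 members (95.9%, 86.0 to 99.5%). This sum is a range with no gap, since 59 and 18 members held 5 to 20 of these UMIs. With cells thinned to 2000 UMIs and a limit of 5, the shares were 51.2% and 69.4%. The sum is not particular to members: its median was 15 and 24 UMIs in members, 17 and 31 in macrophages, and 4 and 5 in labelled cells, in which Fn1, a matrix protein, stood at 530 and 523 CPM.

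**Figure D1:**
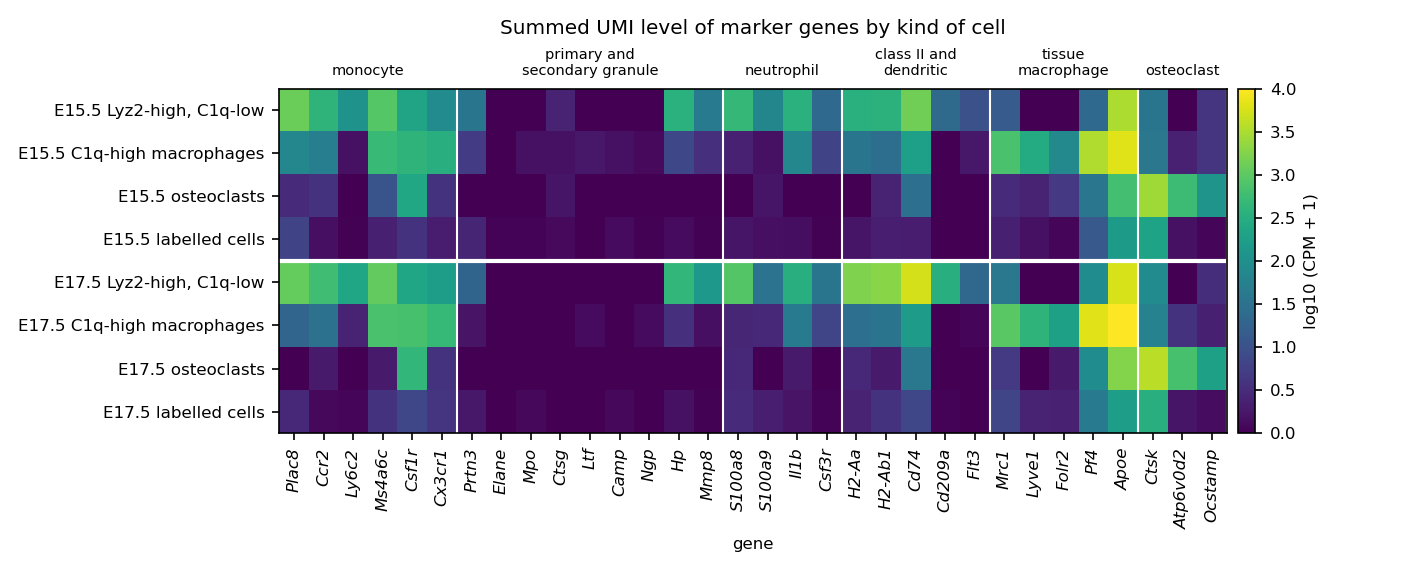
Colour gives log10 (CPM + 1) of 32 marker genes (columns) in 4 kinds of cell of each library (rows), from 0 to 4. Plac8 (1260 and 1116 CPM), Ccr2 and class II genes are bright in the Lyz2-high, C1q-low rows, Elane, Mpo, Ltf, Camp and Ngp are at 0 there, and Mrc1 and Lyve1 are bright in the macrophage rows.

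Granule genes gave a mixed picture: several were absent, yet both granule lists summed above macrophages in both libraries, mostly through Ctsc, Hp and Mmp8. Of the 7 genes of primary granules, the first to form in neutrophil precursors, Mpo, Elane and Ms4a3 had no UMI in members of either library and Ctsg had 1 and 0. Prtn3, the protease proteinase 3, had 24 UMIs in E15.5 members (35.1 CPM, 22.5 to 52.2) and 8 in E17.5 members (18.6 CPM, 8.03 to 36.6), spread over 16.3% and 14.3% of members, with at most 5 and 2 UMIs in a cell. Macrophages held 4.02 and 0.61 CPM of Prtn3 and labelled cells 1.59 and 0.83 CPM. Ctsc, which activates granule proteases but is also made by macrophages, was at 1108 and 1594 CPM in members and 679 and 1074 CPM in macrophages.

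Prtn3 and Elane are neighbouring genes of 1 protease family, yet only Prtn3 was detected. Both RefSeq windows, 250 bases before to 50 after the start of the gene in GRCm38.p6, hold the letters GAGGAA, the core bound by the myeloid factor PU.1, shown in capitals. The Prtn3 window is chr10:79879417-79879716 and the Elane window chr10:79886062-79886361, both on the plus strand, with the match 95 and 85 bases before the start.
Prtn3: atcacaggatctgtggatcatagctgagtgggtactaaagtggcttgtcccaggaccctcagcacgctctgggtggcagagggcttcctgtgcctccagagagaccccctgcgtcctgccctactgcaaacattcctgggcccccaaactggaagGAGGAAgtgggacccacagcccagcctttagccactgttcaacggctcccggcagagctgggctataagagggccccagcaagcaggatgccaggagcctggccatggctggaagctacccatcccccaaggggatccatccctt
Elane: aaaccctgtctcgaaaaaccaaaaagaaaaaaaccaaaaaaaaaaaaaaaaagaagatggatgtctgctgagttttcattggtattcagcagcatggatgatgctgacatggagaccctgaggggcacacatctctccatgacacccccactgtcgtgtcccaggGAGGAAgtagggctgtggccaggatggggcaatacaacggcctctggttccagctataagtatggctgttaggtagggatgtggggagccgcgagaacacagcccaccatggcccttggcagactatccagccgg
On either strand, 28.3% of all 32851 windows held GAGGAA, and the match is a description that both genes share. Spi1, which encodes PU.1, was at 364 and 381 CPM in members and 410 and 457 CPM in macrophages.

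Among 9 secondary granule genes, Ltf, Camp, Ngp, Chil3 and Cd177 had no UMI, and Lcn2 had 0 and 3. Hp and Mmp8 were exceptions. Hp, haptoglobin, was at 361 CPM (318 to 409) in E15.5 members and 442 CPM (381 to 509) in E17.5 members against 6.44 and 2.58 CPM in macrophages, which made it 56.1-fold and 171-fold higher in members. Hp UMIs were present in 68.6% and 67.3% of members, and 16 and 9 cells held most of them. Mmp8, neutrophil collagenase, was at 42.4 CPM (28.4 to 60.9) in E15.5 members and 132 CPM (100 to 172) in E17.5 members, and at 2.41 and 0.46 CPM in macrophages. The 3 suffixes gave 27.2, 112 and 172 CPM of Mmp8, so the 4 cells of suffix 1 did not share the higher E17.5 level.

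No member reached 10 UMIs of Mpo, Elane, Prtn3, Ctsg, Ltf, Camp, Ngp and Lcn2 together: the limit for 0 of 86 cells is 3.49% and that for 0 of 49 cells 6.12%, taken as 3 counts of the total (the exact intervals end at 4.20% and 7.25%). The highest sums were 5 and 4 UMIs, and 71 and 42 members had none. Labelled cells, which should lack these genes, reached 5 and 7. At E15.5, 3 barcodes with at least 10 Lyz2 UMIs held 39, 58 and 60 UMIs of these genes. They had 749, 829 and 873 genes, below the cell limit on genes, so they could not be members. The result for members thus covers only cells past that limit, and granule RNA in cells of fewer genes was not tested. At E17.5 no barcode reached 10, inside or outside the limits. Eosinophil and basophil genes were at most at 3 UMIs each, with Epx, Prg2, Prg3, Ear1, Ear6, Mcpt8, Prss34 and Fcer1a at 0.

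Genes of mature neutrophils were not absent. The 12 listed, which include S100a8, S100a9 and Il1b, summed to 1143.5 CPM (1065 to 1227) in E15.5 members and 1474 CPM (1361 to 1593) in E17.5 members, against 132 and 87.2 CPM in macrophages and 34.8 and 26.9 CPM in labelled cells. Of 4 with enough UMIs to be compared with macrophages, Il1b, S100a8 and Fpr2, a receptor for formyl peptides, were at least 2-fold higher in both libraries and none lower. Over all 7115 genes compared, 2.6% were higher. Il1r2, a decoy receptor of interleukin-1, had 45 and 18 UMIs in members (65.8 and 41.8 CPM) and 3.49 and 0.76 CPM in macrophages. Trem1, an activating receptor of neutrophils and monocytes, had 30 and 11 UMIs, while Retnlg, a gene of mature neutrophils, had 1 and 0.

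S100a8 and S100a9, which encode the subunits of calprotectin, an abundant protein of neutrophils and of classical monocytes, lay mostly in few cells. S100a8 was at 468 CPM (418 to 522) in E15.5 members and 862 CPM (777 to 955) in E17.5 members, against 1.34 and 1.67 CPM in macrophages. However, 1 E17.5 cell held 320 of the 371 UMIs. Without the highest cell of each library the levels were 365 and 120 CPM, and the order of the stages reversed. S100a9 was at 68.7 CPM (50.5 to 91.4) in E15.5 members and 32.5 CPM (17.8 to 54.6) in E17.5 members.

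At least 10 UMIs of this pair were found in 10 of 86 E15.5 members (11.6%, 5.72 to 20.3%) and 2 of 49 E17.5 members (4.08%, 0.498 to 13.98%), and 61 and 37 members had none. Such S100-high cells, described after their values were seen, also carried more of Stfa1, a cysteine protease inhibitor, at 1074 against 36.2 CPM in other E15.5 members and 4303 against 103 CPM in other E17.5 members. Ly6c2 was at 640 against 67.7 CPM and at 1317 against 203 CPM, Hp at 1094 against 305 CPM and at 1317 against 418 CPM, and Pglyrp1, a peptidoglycan-binding protein, at 289 against 14.2 CPM and at 351 against 59.7 CPM. The E17.5 values rest on 2 cells with 11388 UMIs, and the cell with 334 of their S100 UMIs had a doublet score in the top of its suffix, as did 1 of the 10 S100-high cells at E15.5. Cx3cr1 and Stmn1, a tubulin-binding protein of dividing cells, went the other way, with Cx3cr1 at 0 UMIs in the S100-high cells of both libraries.

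The S100a8 window (chr3:90668821-90669120, plus strand) holds TTNNGNAA, letters found in sites of C/EBP factors, 117 bases before the start.
S100a8: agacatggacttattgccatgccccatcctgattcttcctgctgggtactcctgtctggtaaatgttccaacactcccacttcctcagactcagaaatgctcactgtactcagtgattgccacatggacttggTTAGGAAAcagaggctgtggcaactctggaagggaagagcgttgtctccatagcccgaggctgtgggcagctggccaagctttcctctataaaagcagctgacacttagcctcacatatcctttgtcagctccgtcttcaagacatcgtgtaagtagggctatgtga
The capitals mark that match. This motif was found on either strand in 40.7% of all windows. Of the C/EBP genes, Cebpb was at 39.5 and 1397 CPM in members, Cebpa at 13.2 and 13.9 CPM, and Cebpe, needed for secondary granules, had 7 and 5 UMIs. Cebpb was also higher at E17.5 in macrophages and in labelled cells, so its difference was not particular to members. Cebpd, which the E17.5 gene list lacks, could not be compared.

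Class II antigen presentation genes divided the members. H2-Aa, H2-Ab1 and H2-Eb1, which encode class II chains, and Cd74, which guides those chains through the cell, summed to 2189 CPM in E15.5 members and 10173 CPM in E17.5 members, a ratio of 4.65 (4.38 to 4.93). In macrophages they summed to 254 and 238 CPM, a ratio of 0.93, and in labelled cells to 4.07 and 12.4 CPM. At least 10 of their UMIs were found in 17 of 86 E15.5 members (19.8%, 12.0 to 29.8%) and 12 of 49 E17.5 members (24.5%, 13.3 to 38.9%), so the share of such cells overlapped between stages within counting error.

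What differed was the amount in each such cell. The class II-high members held a median of 36 class II UMIs (10 to 488) in the younger library and 320.5 (13 to 796) in the older, and 3 and 11 members held at least 100. By contrast 35 and 17 members held none, and 14 and 7 lay near the limit, with 5 to 20. Members with at least 10 S100 UMIs and at least 10 class II UMIs at once were absent, at 0 of 86 (up to 3.49%) and 0 of 49 (up to 6.12%). S100-high members numbered 10 and 2 and class II-high members 17 and 12. Few cells with both are then to be found even if the 2 are unrelated, and whether they exclude each other was not tested. The 2 limits together left 59 and 35 members that passed neither.

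**Figure D2:**
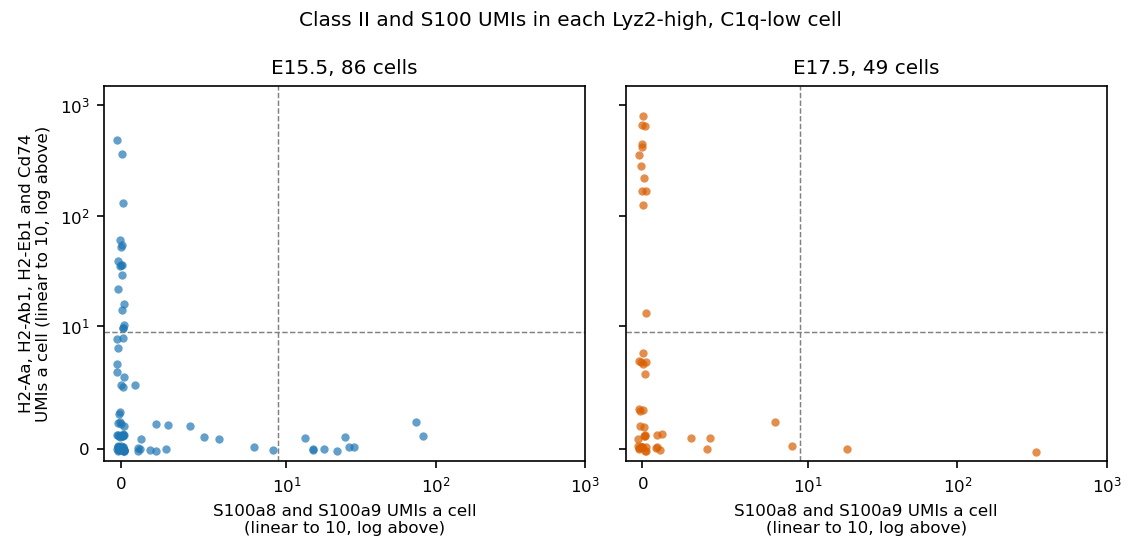
Each point is 1 Lyz2-high, C1q-low cell, with its S100a8 and S100a9 UMIs on the x axis and its H2-Aa, H2-Ab1, H2-Eb1 and Cd74 UMIs on the y axis (both linear to 10 and logarithmic above, with a small random shift of each point), with 86 cells in the E15.5 panel and 49 in the E17.5 panel. Dashed lines mark 10 UMIs, no cell lies past both, and 11 E17.5 cells but 3 E15.5 cells reach 100 class II UMIs.

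H2-Aa was at 339 CPM (297 to 386) in E15.5 members and 1690 CPM (1569 to 1817) in E17.5 members, and H2-Ab1 at 371 and 1941 CPM. Only 2 cells held most UMIs of each of these genes at E15.5, and 4 and 3 cells at E17.5. In suffix 1 no member was class II-high and H2-Aa, H2-Ab1 and H2-Eb1 were at 0, with 4 members there. In suffixes 2 and 3, 8 of 23 and 4 of 22 members were class II-high and H2-Aa stood at 2220 and 1478 CPM. Both suffixes were thus above E15.5, whereas suffix 1 was not, and its class II sum was 0.199 of the E15.5 level.

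RNA of other cells moved with this group. More than 1% of UMIs came from 5 mesenchymal genes in 5 of 12 class II-high members at E17.5 and 2 of 17 at E15.5, and 7 of 12 and 3 of 17 had doublet scores in the top of their suffix. Without all members of high doublet score the class II ratio was 2.47 and the class II-high share at E17.5 was 13.2%; without mesenchyme-high members the ratio was 3.52, and with a Lyz2 limit of 20 UMIs it was 8.25. The part of doublets in the result was not tested beyond these values.

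H2-Aa and H2-Eb1 windows were read because class II genes are known to share promoter elements, among them a Y box with the letters CTGATTGG. The H2-Aa window is chr17:34287774-34288073 on the minus strand and the H2-Eb1 window chr17:34305617-34305916 on the plus strand, with the capitals marking the match 51 and 62 bases before the start.
H2-Aa: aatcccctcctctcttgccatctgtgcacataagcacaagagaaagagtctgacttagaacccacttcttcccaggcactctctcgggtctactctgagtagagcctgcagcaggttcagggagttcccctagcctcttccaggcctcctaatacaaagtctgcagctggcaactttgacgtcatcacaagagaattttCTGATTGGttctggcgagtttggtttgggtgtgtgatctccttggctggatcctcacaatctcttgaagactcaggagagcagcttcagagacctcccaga
H2-Eb1: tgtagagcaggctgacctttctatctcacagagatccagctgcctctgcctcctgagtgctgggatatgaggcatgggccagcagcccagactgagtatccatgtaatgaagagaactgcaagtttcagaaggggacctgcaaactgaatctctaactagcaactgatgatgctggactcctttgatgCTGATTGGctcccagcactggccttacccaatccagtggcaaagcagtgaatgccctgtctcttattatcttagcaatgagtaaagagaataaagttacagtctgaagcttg
These letters were found on either strand in 4.1% of all windows. Windows of S100a8, Prtn3 and Elane are shown above, although Elane had no UMI in members. TTNNGNAA also has 2 matches in the H2-Eb1 window and 0 in those of H2-Aa, Prtn3 and Elane. GAGGAA has 2 matches in the S100a8 window and 0 in those of H2-Aa and H2-Eb1.

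Cd209a, a lectin of monocyte-derived dendritic cells (chromosome 8, 3743397 to 3748984, minus strand), followed class II. It was at 23.4 CPM (13.4 to 38.0) in E15.5 members and 325 CPM (274 to 384) in E17.5 members, was at 0 in macrophages of both libraries, and was found in 4.7% and 14.3% of members. The ratio of 13.9 (8.27 to 25.0) was 4.17 without members of high doublet score and 65.2 with a Lyz2 limit of 20 UMIs, and suffix 1 held no Cd209a UMI. All 16 of its E15.5 UMIs and 139 of its 140 E17.5 UMIs lay in class II-high members. Mgl2, another lectin, had 2 and 50 UMIs, all in class II-high members. Flt3, the receptor of dendritic cell progenitors, had 6 and 9 UMIs, and Itgax, Clec9a and Siglech, genes of dendritic cell lineages, were at 0. Of the 11 dendritic genes listed, 5 could be compared between stages and all 5 (the class II genes, Cd74 and Cd209a) were at least 2-fold higher at E17.5, against 5.05% of all 3012 genes compared between stages. In suffix 1 neither Cd209a nor the class II sum was above E15.5.

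Class II-high members also stood above the other members in both libraries for H2-DMb1, a class II loading factor, with 143 against 21.0 CPM in the E15.5 and 870 against 13.6 CPM in the E17.5 library, and for H2-DMa. Tmem176a and Tmem176b, ion channels of dendritic cells, were 2-fold or more above as well, with Tmem176b at 299 against 126 CPM and 428 against 136 CPM. Ly6c2 was at 6.24 against 139 CPM in the E15.5 library and 0 against 339 CPM in the E17.5 library. Ccr2 was kept, at 530 and 568 CPM in class II-high members. The genes named here were chosen after their values were seen, from groups cut on the same cells.

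Against C1q-high macrophages, chosen by their C1q UMIs among the same unlabelled cells (339 and 577 cells), members were at least 2-fold higher in both libraries for 185 genes (2.6% of 7115) and at least 2-fold lower for 246 (3.46%). The 8 genes of largest smaller fold above were S100a8, Stfa1, Ly6c2, Hp, Ltb4r1, Ifitm6, Sirpb1c and Plac8. Ltb4r1, the leukotriene B4 receptor that guides leukocytes to inflamed tissue, was at 139 and 191 CPM in members and 3.49 and 4.10 CPM in macrophages. Sirpb1c, a receptor of the signal-regulatory family, was at 95.05 and 130 CPM against 4.56 and 6.67 CPM.

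The 8 genes of largest smaller fold below were Lyve1, Folr2, Pf4, Ccl12, Fcrls, Gas6, Ppbp and Mrc1. Lyve1, a hyaluronan receptor of perivascular macrophages, and Folr2, a folate receptor, had no UMI in members and stood at 290 and 394 CPM and at 76.2 and 189 CPM in macrophages. Mrc1, the mannose receptor, was at 13.2 and 39.5 CPM in members and 713 and 939 CPM in macrophages, and Pf4, a chemokine of platelets and fetal macrophages, at 21.9 and 86.0 against 3385 and 6634 CPM. Of 16 tissue macrophage genes other than C1q, 14 were compared, 9 were at least 2-fold lower and 1 was higher, against 3.46% and 2.6% of all genes. Both kinds of cell were cut on C1q, itself made by tissue macrophages, so this count is a description and no independent support. The median log2 ratio of the list was -3.10 at E15.5 and -2.75 at E17.5, beside -0.12 and -0.09 over all genes. Apoe, the lipid carrier, was not 2-fold apart in both libraries, at 3265 and 5799 CPM in members and 6370 and 10160 CPM in macrophages.

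Against osteoclasts, chosen by Acp5, Mmp9 and Ctsk (67 and 47 cells), members were at least 2-fold higher in both libraries for 326 genes (9.26% of 3522) and at least 2-fold lower for 380 (10.8%). The 8 highest were Plac8, Hp, H2-Aa, Ifitm6, Ms4a4c, Ltb4r1, S100a8 and Stfa1. Atp6v0d2, a subunit of the proton pump that acidifies the resorption pit, and Dcstamp, a fusion receptor, had no UMI in members and stood at 544 and 690 CPM and at 151 and 118 CPM in osteoclasts. Car2, Rufy4, Slc9b2, Mt3 and Serpind1 were also at 0 in members, and Ctsk, which took part in choosing osteoclasts, was at 35.1 and 83.7 CPM against 2727 and 3853 CPM. Ocstamp, another gene of cell fusion, was at 2.92 and 2.32 CPM in members and 117 and 184 CPM in osteoclasts.

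**Figure D3:**
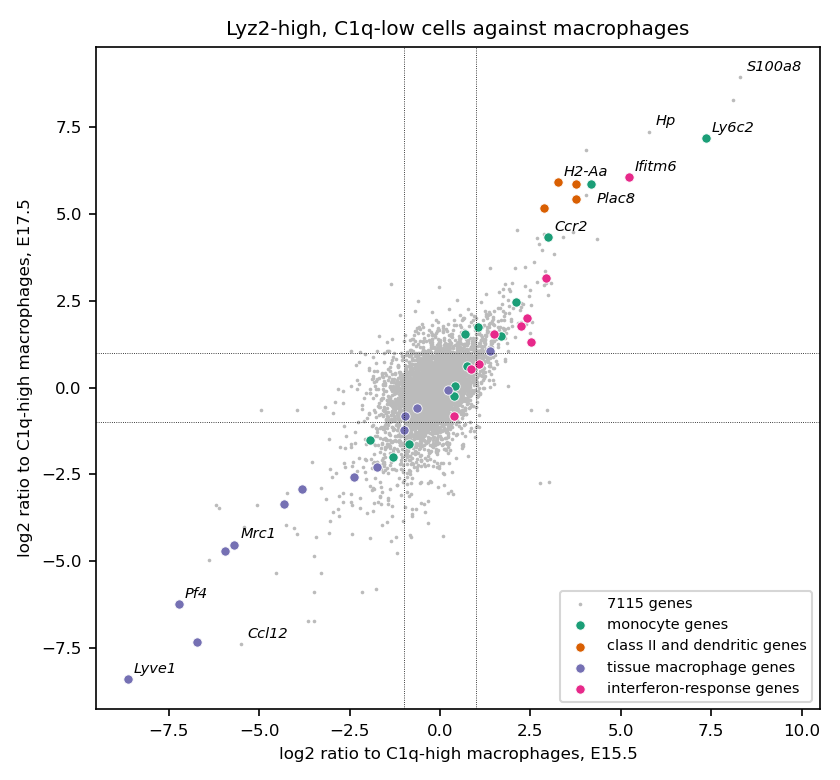
Each point is 1 of 7115 genes, placed by its log2 ratio of CPM in Lyz2-high, C1q-low cells to C1q-high macrophages at E15.5 (x axis) and E17.5 (y axis), with 0.5 UMI added to each sum and 4 gene lists in colour. Dotted lines mark 2-fold, with 185 genes past it in the upper right, Ly6c2 and S100a8 among them, and 246 in the lower left, Lyve1 and Pf4 among them.

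Interferon-induced genes were among the programmes above macrophages. Of 9 compared, 6 were at least 2-fold higher in both libraries, Isg15, Ifitm1, Ifitm3, Ifitm6 and Irf7 among them, and none lower. The shares over all 7115 genes were 2.6% higher and 3.46% lower. The list median log2 ratio was 2.23 at E15.5 and 1.54 at E17.5. Ifitm3, which blocks virus entry, was at 2150 and 2366 CPM in members and 279 and 263 CPM in macrophages, and every member had a UMI of it. Ifitm6, a relative of Ifitm3 in leukocytes, was at 265 and 291 against 6.97 and 4.25 CPM. Isg15, a ubiquitin-like protein, was at 65.8 and 48.8 against 11.5 and 20.02 CPM, and Irf7, a factor that amplifies interferon, at 80.4 and 69.7 against 15.3 and 17.6 CPM.

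Subunits of the phagocyte NADPH oxidase, the enzyme of the respiratory burst, were above macrophages for 3 of 6 genes, against 2.6% of all genes. These were Cybb, the catalytic subunit, at 304 and 323 CPM against 75.1 and 65.7 CPM, Ncf4, and Rac2, the GTPase that activates the complex. Ncf1 was at 58.5 and 37.2 CPM in members and 69.2 and 75.7 CPM in macrophages. The list's median log2 ratio was 1.14 at E15.5 and 0.63 at E17.5.

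Adhesion and rolling receptors gave 3 of 6 compared genes above macrophages and none below, against 2.6% and 3.46% of all genes. Itgb2, the beta chain of leukocyte integrins, was at 93.6 and 153 CPM against 19.04 and 29.3 CPM, and Selplg, the ligand of selectins, at 121 and 188 against 30.8 and 48.2 CPM. Itgam, the alpha chain of Mac-1, was at 67.3 and 67.4 against 20.9 and 24.6 CPM.

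Of 7 chemoattractant receptors compared, 4 were above macrophages, Ccr1, Ccr2 and Fpr2 among them, and Cx3cr1 was below. Over all genes compared, 2.6% were above and 3.46% below. Chemokine ligands were split: Ccl6 and Ccl9 were above, while Ccl2, Ccl7, Ccl12, Cxcl16 and Pf4 were below, of 11 compared. Ccl6 was at 225 and 437 CPM in members and 29.2 and 53.7 CPM in macrophages, and Ccl2, the ligand of Ccr2, at 148 and 191 against 511 and 940 CPM. Il1b, the cytokine interleukin-1 beta, was at 363 and 323 CPM in members and 71.3 and 42.8 CPM in macrophages, and 8 and 5 cells held most of its UMIs.

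Other lists differed less. Of 11 lysosomal genes, Ctss and Psap were above macrophages and Ctsb and Lgmn below. Of 10 pattern recognition receptors compared, Clec4d was above and Cd36 below, and of 6 antibody receptors only Fcgrt, which transports antibody, was called, below. Csf2rb, the shared receptor of several colony stimulating factors, was above at 98.0 and 116 against 40.0 and 37.2 CPM, while Csf1r, the receptor macrophages need to survive, was at 219 and 221 CPM in members and 398 and 681 CPM in macrophages. Of 11 transcription factors compared, Cebpb and Nfil3 were above and none below, and of 4 progenitor genes none was called. Csf3r, the receptor for the neutrophil growth factor, had 15 UMIs in each library (21.9 and 34.9 CPM), and Cxcr2 had 2 and 0. None of 15 cell cycle genes was 2-fold apart from macrophages the same way in both libraries, with Top2a at 184 and 146 CPM in members and 248 and 175 CPM in macrophages.

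Between stages, 3012 genes had at least 50 UMIs over the members of both libraries. Of these, 152 were at least 2-fold higher at E17.5 (5.05%) and 177 at least 2-fold lower (5.88%), and in every one of the 3 suffixes 52 were higher (1.73%) and 68 lower (2.26%). Most of the latter were not particular to members: 38 of the 52 and 55 of the 68 were also 2-fold apart the same way in labelled cells or macrophages. When a gene also had to be 2-fold beyond the macrophages' own ratio, 49 were higher (1.63%) and 36 lower (1.2%). Log2 CPM of the 3012 genes correlated between libraries with r = 0.848, a value across genes, which are not independent replicates.

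The 8 genes of largest fold higher in every suffix were Cebpb, Tnc, Igf2, Gm49339, Gm10073, Gm49342, Mgl2 and Srp54c. Mgl2 is among them only through the 0.5 UMI added to each sum, since the 4 members of suffix 1 held none of it. All 8 were also at least 2-fold higher in labelled cells and in macrophages. Cebpb, a transcription factor of monocytes and stress responses, was at 39.5 CPM (26.02 to 57.4) in E15.5 members and 1397 CPM in E17.5 members, with 1580, 1265 and 1493 CPM in the suffixes. In macrophages it went from 15.8 to 464 CPM and in labelled cells from 4.13 to 39.0 CPM. Tnc and Igf2 are matrix and growth factor genes of mesenchyme, at 324 and 1948 CPM in labelled cells at E17.5.

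The 8 of largest fold lower in every suffix were Pgk1, Cpa3, Gatm, Cma1, Hspa1a, Col9a1, Tpm3-rs7 and Matn1. All 8 were also lower in labelled cells and 5 of 8 in macrophages. Pgk1, a glycolytic enzyme, was at 352 CPM at E15.5 and 4.65 CPM at E17.5, and in macrophages at 341 and 18.2 CPM. The 2 matrices hold different gene sets, and the part of the annotation in such folds was not tested. Col9a1 and Matn1 are cartilage genes, and Cpa3 and Cma1 are mast cell proteases.

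Most monocyte genes were within 2-fold between stages. Ly6c2 (ratio 2.15, 1.58 to 2.94) and Cx3cr1 (2.01, 1.40 to 2.89) were the monocyte genes past 2-fold, 2 of 13 compared, and neither went 2-fold beyond macrophages. Neither was past 2-fold in every suffix: in suffixes 1, 2 and 3 the Ly6c2 ratio was 1.76, 1.18 and 3.18 and the Cx3cr1 ratio 2.94, 2.57 and 1.28. With a Lyz2 limit of 5 UMIs the Ly6c2 ratio was 1.41. Plac8 had a ratio of 0.885 (0.790 to 0.991) and Ccr2 of 1.496 (1.26 to 1.78). Mmp8 was 3.12-fold higher (1.97 to 5.07), and Csf2ra, a receptor chain for the colony stimulating factor GM-CSF, was at 81.9 and 244 CPM. Cell cycle genes gave 0 of 15 past 2-fold in either direction, with a median log2 ratio of -0.33 beside -0.04 over all genes.

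Cxcl2 and some receptors of innate immunity were lower at E17.5. Cxcl2, a chemokine that attracts neutrophils (chromosome 5, 90903871 to 90905938, plus strand), was at 2574 CPM (2455 to 2697) in E15.5 members and 323 CPM (272 to 382) in E17.5 members, with 272, 357 and 299 CPM in the suffixes, all below E15.5. Its ratio was 0.126 (0.105 to 0.149), and in macrophages the level went from 2654 to 1135 CPM. A Cxcl2 UMI was found in 88.4% of members at E15.5 and 34.7% at E17.5. Tlr2, Clec4e and Nlrp3, receptors for microbial products and damage, were at least 2-fold lower, with Tlr2 at 357 and 121 CPM and Nlrp3 at 130 and 32.5 CPM. They were 3 of 8 compared, with none higher, against 5.88% lower of all 3012 genes. None of the 8 went 2-fold beyond the macrophages' own ratio.

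Genes known to be induced by tissue digestion did not move together. Of 12 compared, Zfp36 and Jund were at least 2-fold higher at E17.5 and Fosb and Hspa1a lower, with Fos at 1250 and 1646 CPM. Fosb went from 213 to 46.5 CPM in members, from 190 to 130 CPM in macrophages and from 228 to 47.4 CPM in labelled cells. Digestion time and enzyme differed between libraries, and their part in these ratios and in that of Cxcl2 cannot be told apart from stage.

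**Figure D4:**
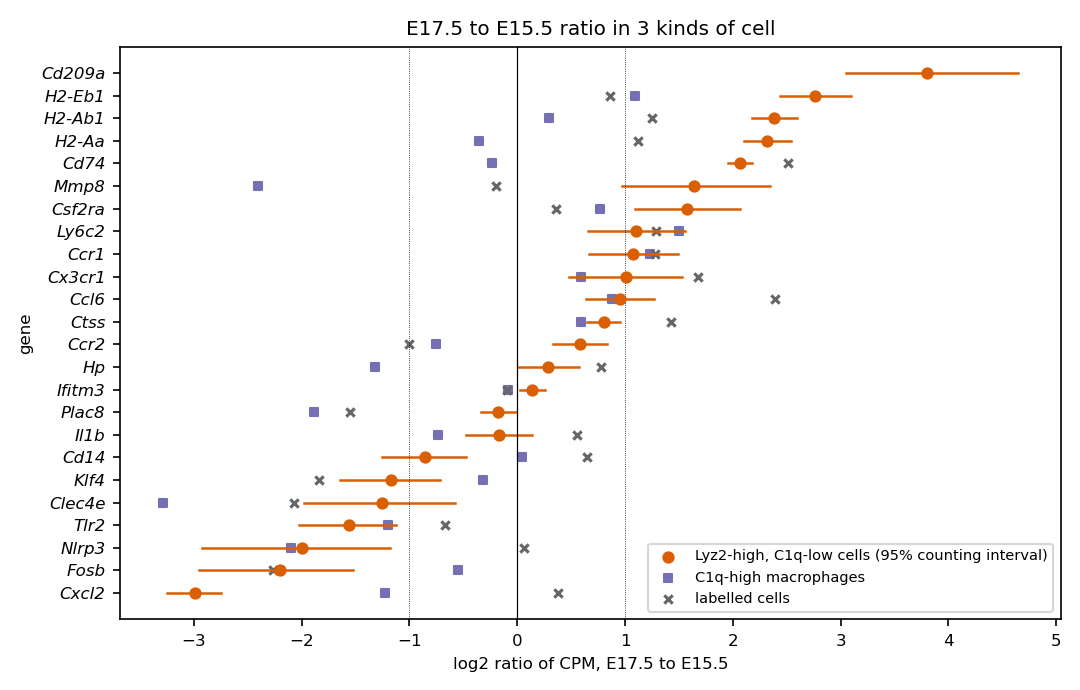
Orange points give the log2 ratio of CPM, E17.5 to E15.5, of 24 myeloid genes in Lyz2-high, C1q-low cells, with lines for the exact 95% counting interval. Squares give macrophages, crosses labelled cells and dotted lines 2-fold. Class II genes lie to the right of their macrophage squares, Cd209a, which macrophages lacked, lies farthest right, Cxcl2 (0.126-fold) and Fosb lie to the left, and Ifitm3 and Plac8 lie near 0.

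Some members carried RNA of other cells. Mast cell genes summed to 489 UMIs at E15.5, of which 441 lay in 3 cells with 97 to 180 each, and the next highest member held 3. At E17.5 they summed to 15. Cpa3 and Cma1 are among these genes, and without the 3 cells the members' mast cell ratio moved from 0.0488 to 0.486. Mesenchymal genes summed to 4340 and 17225 CPM (ratio 3.97, 3.803 to 4.14), against 1.22 in macrophages. Members with over 1% of UMIs from 5 of these genes numbered 6 and 8 and held 64.1% and 87.5% of the UMIs of those 5 genes. Of these members, 6 of 6 and 7 of 8 had high doublet scores. Without them the ratio was 1.76.

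Hbb-bs, a hemoglobin chain of red cells, was at 6741 and 277 CPM in members of the 2 stages, and at 5426 and 283 CPM in labelled cells. Hbb genes took part in the cell limits, so these levels describe the kept cells and are no result. Lymphoid genes Cd3e, Cd3g, Cd79a and Nkg7 had no UMI in members. Of the 11 lymphoid genes listed, 8 and 9 were at 0 in members. The list still summed to 137 and 74.4 CPM in members, against 127 and 80.8 CPM in macrophages and 464 and 174 CPM in labelled cells. Lyz1, a near-identical copy of Lyz2 next to it in the genome, had 0 and 14 UMIs, a count that is uncertain because reads of the 2 copies can be misassigned.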

How the data were processed

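RNA of single cells of the coronal suture was measured in 1 library per stage, and both were used. The values deposited by the authors are raw counts of UMIs per gene, not scaled, in the barcodes of the 2 matrices (15384 at E15.5 and 9326 at E17.5, of which 8117 and 8767 were inside the cell limits), with a table of labelled cells, of which only the labels and barcodes were used. Its percent values (mitochondrial, Hbb and Hba shares), deposited by the authors, and its score values, deposited cell cycle scores, were not used. Reads were counted by the authors with Cell Ranger on mm10 (version 3.1.0 in the E15.5 file header, another version in their methods).

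Genes were matched by Ensembl ID. Members, lists and markers were chosen with earlier results of these data known. C1q-high macrophages were unlabelled cells inside the same limits with at least 10 C1q UMIs and below 20 of Acp5 and Mmp9, and osteoclasts had at least 20 of these and 10 of Ctsk. UMIs were summed over cells, 0.5 UMI was added to each sum for folds, and genes needed 50 UMIs and a 2-fold difference, in both libraries for comparisons with other cells. Intervals (exact Poisson, Clopper-Pearson, and conditional for ratios) were at 95% and cover counting error only. No p-value was computed, since each stage is 1 library. Shares of cells with a UMI were also taken after thinning each cell to 2000 UMIs. Scrublet scores were computed in each suffix with an expected rate of 0.06, and cells at or above the 94th percentile were called high; doublets were kept in the values as given.

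Named genes were those of the lists, plus, for each comparison with macrophages or osteoclasts, the 8 of largest smaller fold over the libraries in each direction, and, between stages, the 8 of largest fold past 2-fold in every suffix. Positions are from GENCODE for GRCm38, and promoter windows from RefSeq for GRCm38.p6. Folds and intervals were tested on simulated data. The tools were scanpy 1.11.5, scipy 1.17.1, matplotlib 3.10.9, pandas 2.3.3, anndata 0.12.19 and numpy 2.4.6 in Python 3.11.15. Alternatives were other limits on Lyz2, C1q, Hbb and Hba, UMIs and genes, each suffix alone, other scalings and the removal of doublets or of cells with RNA of other cells. Protein sequences were not analysed here. Some genes counted in the lists are not reported here by name.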

Additional observations from a re-analysis of the deposited data

Results flagged for a closer look

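At E15.5, 7 barcodes held at least 10 UMIs of the 8 granule genes and none of them was a Lyz2-high, C1q-low member, so a granule signal was present outside the cells described. In 4 of these the granule UMIs were all from Ctsg (11 to 21 UMIs), with 383 to 582 mast cell UMIs and no Lyz2 UMI, and 2 of the 4 passed the cell limits. The other 3 held 39, 58 and 60 UMIs of Camp, Ngp, Lcn2 and Ltf together with 23, 35 and 20 of Lyz2. Of these, 2 had 348 and 299 UMIs of S100a8 and S100a9, but 48.5% and 43.6% of their UMIs were from Hbb genes and they held 749 and 829 genes. The last had 873 genes and carries the label of an osteogenic cluster. All 3 were outside the cell limits, and at E17.5 no barcode reached 10 granule UMIs.

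A further signal outside the comparisons is that 26 E15.5 barcodes met the gene limits but not the cell limits, against 0 at E17.5. The E15.5 matrix held far more barcodes outside those limits, since 8117 of its 15384 barcodes were inside them, against 8767 of 9326 at E17.5, and the granule count was taken over the same barcodes. In 19 of them Hbb or Hba was above 3%, in 6 mitochondrial UMIs were above 7.5% and in 7 fewer than 1000 genes were found, with some failing more than 1 limit. In the kept E15.5 members Hbb was at most 2.22% of UMIs.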

How the results depend on the processing

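No paired analysis was possible because each stage is 1 library and no test was run. Counted first were shares of cells, gene counts and shares of members past the granule or class II limit. Of these, 141 stayed close under an alternative and 23 moved. The other values were stage ratios of genes and lists and shares of members past the monocyte or S100 limit. Of these, 217 stayed close, 74 moved and 9 reversed, and every reversal was a stage ratio. Gene minimum and fold limits do not enter these ratios, so under those alternatives they could only stay the same. A Lyz2 limit of 5 UMIs gave 244 genes higher at E17.5, and the ratios of Hp (0.796) and of secondary granule genes (0.938) reversed. Suffix 1 alone, with 4 cells, gave a share of 0.261%, a share ratio of 0.247, 293 genes lower, 67 above and 157 below macrophages, 0% class II-high cells, and reversed ratios for class II (0.199), S100 (0.406), Cd209a (0) and mesenchymal genes (0.684). Suffix 3 alone reversed S100 (0.198) and Plac8 (1.197). Without high doublet scores 114 genes were lower, S100 reversed (0.260) and 13.2% of E17.5 members were class II-high. Leaving out the 3 members of at least 50 mast cell UMIs, the S100-high members or the class II-high members, 3 alternatives chosen after seeing the data together with the limit of 100 UMIs and the ratio relative to macrophages, turned no ratio, and without class II-high members Cd209a had no E15.5 UMI and so no ratio. The mean of each cell's CPM gave 403 genes below macrophages. A gene minimum of 20 UMIs gave 395 higher, 465 lower and 297 above macrophages, and of 1 UMI 2417, 1755, 976 and, below, 477. A limit of 1.5-fold gave 383, 476, 394 and 690. Class II-high cells at E15.5 were 30.2% with a limit of 5 UMIs and 3.49% with one of 100. With 86 and 49 members, a kind of cell seen in none may still make up to 3.49% and 6.12% of them by the limit of 3 counts, and a level under 4.39 or 6.97 CPM cannot be told from 0.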
